A study of Mus musculus with 18 samples.

Results

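The genes described here are 32 mouse genes of antioxidant defence: the transcription factor NRF2 (gene Nfe2l2) and its inhibitor KEAP1, with the thioredoxin, peroxiredoxin, superoxide dismutase, catalase, glutathione and NADPH enzymes. They were chosen by name for their known roles, with earlier results of these data known. Each was matched by its Ensembl identifier, 32 of 32, among the 50686 identifiers counted, and all 32 were among the 13447 genes with enough counts to be tested. Messenger RNA had been sequenced in primary microglia, the resident macrophages of the brain, grown from forebrains of C57BL/6 pups at postnatal day 2 in culture for 7 days and then 7 more. No treatment was given. The series title concerns how the kinase TBK1 limits inflammation and cell death driven by the kinase RIPK1.

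There were 6 genotypes with 3 libraries each. The mice labelled Tbk1+/-;Tak1ΔM/+;Ripk1D138N/+ (triple mutant below) carry 1 changed allele of each of 3 genes. The Tbk1+/-;Tak1ΔM/+ mice (double heterozygotes below) lack the Ripk1 change. The Tak1ΔM/+ mice carry the Tak1 allele alone, and the mice labelled Tbk1+/-;Ripk1D138N/D138N (Tbk1/Ripk1 mutant below) pair the Tbk1 allele with Ripk1 D138N on both alleles. The Tbk1+/- mice carry the Tbk1 allele alone, and wild type (WT) carries none. TAK1 (gene Map3k7) is a kinase of tumor necrosis factor signalling, and D138N removes the kinase activity of RIPK1. The labels do not say which cells lose TAK1, nor the sex of the pups, nor whether replicates were separate animals or cultures, so p-values measure only the spread between libraries, which may be technical.

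NRF2 is held in the cytoplasm by KEAP1, which marks it for degradation. When electrophiles or oxidants modify KEAP1, NRF2 enters the nucleus, pairs with small MAF proteins and binds antioxidant response elements near genes of peroxide removal, glutathione synthesis and NADPH supply. Peroxiredoxins and glutathione peroxidases remove peroxides with electrons passed from NADPH through thioredoxin or glutathione. Microglia produce superoxide with a phagocyte NADPH oxidase, so the same cells both make and remove oxidants. NRF2 is controlled chiefly through its protein, which RNA counts do not measure.

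Total counts per library ranged from 8016559 to 22989116. Microglial markers were abundant (Csf1r 1619 to 2658 CPM, C1qa 929.5 to 1775 CPM, all 10 markers summed 5842 to 8069 CPM), where CPM is the count per 1e6 counts after TMM scaling. Tmem119 (1.45 to 6.56 CPM) and P2ry12 (2.97 to 17.4 CPM), markers of microglia in the intact brain, were low. Markers of neurons summed to 0.772 to 15.9 CPM, of astrocytes to 21.1 to 65.2 CPM, and of fibroblast, mural and endothelial cells to 1.60 to 43.8 CPM. Oligodendrocyte lineage markers summed to 50.4 to 88.6 CPM, of which Mbp made 44.9 to 82.3 CPM, while Mog was at 0 in 17 libraries. Border macrophage and monocyte markers summed to 146 to 521 CPM, nearly all of it Mrc1 except in 2 Tbk1+/- libraries described below. In bulk RNA, fewer cells of a type and less RNA per cell cannot be told apart.

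Tbk1 RNA went against the label in 5 libraries. The libraries labelled triple mutant held 123, 107 and 115 CPM of Tbk1, the double heterozygotes 55.1, 56.4 and 66.0 CPM and Tak1ΔM/+ 133, 106 and 88.0 CPM. Those labelled Tbk1/Ripk1 mutant held 129.8, 54.9 and 131 CPM, Tbk1+/- 50.5, 65.6 and 57.1 CPM and WT 106, 104 and 149 CPM. All 3 libraries labelled triple mutant, and replicates 1 and 3 labelled Tbk1/Ripk1 mutant, were thus near the WT level. Map3k7, the gene of TAK1, was at 6.57 to 15.8 CPM in the libraries labelled with the Tak1 allele and at 9.34 to 19.2 CPM in the others, so the ranges overlapped. Whether its counts cover the changed part of the gene is not given. The Ripk1 change is a point mutation that counts do not show. The level of Ripk1 RNA differed, with a mean of 58.6 CPM in the double heterozygotes (48.99 to 70.98 CPM). Means were 32.7 CPM in Tak1ΔM/+, 18.03 CPM in Tbk1+/- and 19.96 CPM in WT, each without overlap with the double heterozygotes. The libraries labelled triple mutant (37.1 CPM) and Tbk1/Ripk1 mutant (29.8 CPM) overlapped with them. Ripk1 shares exon bases with Serpinb6a and Gm17084, and the cause was not tested. The groups that hold the 5 libraries of doubtful Tbk1 label are called "labelled" throughout, and a direction drawn from these groups is only as sure as their labels.

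In WT microglia the members spanned a wide range of levels per length. Length counts every annotated exon of a gene, whether or not these cells use it, so the order is approximate. Prdx1, a cytosolic peroxiredoxin, was the highest at 574 CPM per kilobase of exon, followed by the pentose phosphate enzyme Taldo1 at 406, the glutathione peroxidase Gpx1 at 283 and the thioredoxin Txn1 at 221 CPM per kilobase. Catalase (Cat) stood at 155 and Nfe2l2 at 110.3 CPM per kilobase, and the inhibitor Keap1 at 7.84 CPM per kilobase. The lowest were the malic enzyme Me1 at 1.10, the glutathione synthesis enzymes Gclc at 1.38 and Gss at 1.65, and the quinone reductase Nqo1 at 2.53 CPM per kilobase. The peroxiredoxins spread from rank 1 of 32 (Prdx1) and 5 (Prdx5) to ranks 14, 15 and 16 (Prdx2, Prdx4 and Prdx3) and 20 (Prdx6).

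**Figure D1:**
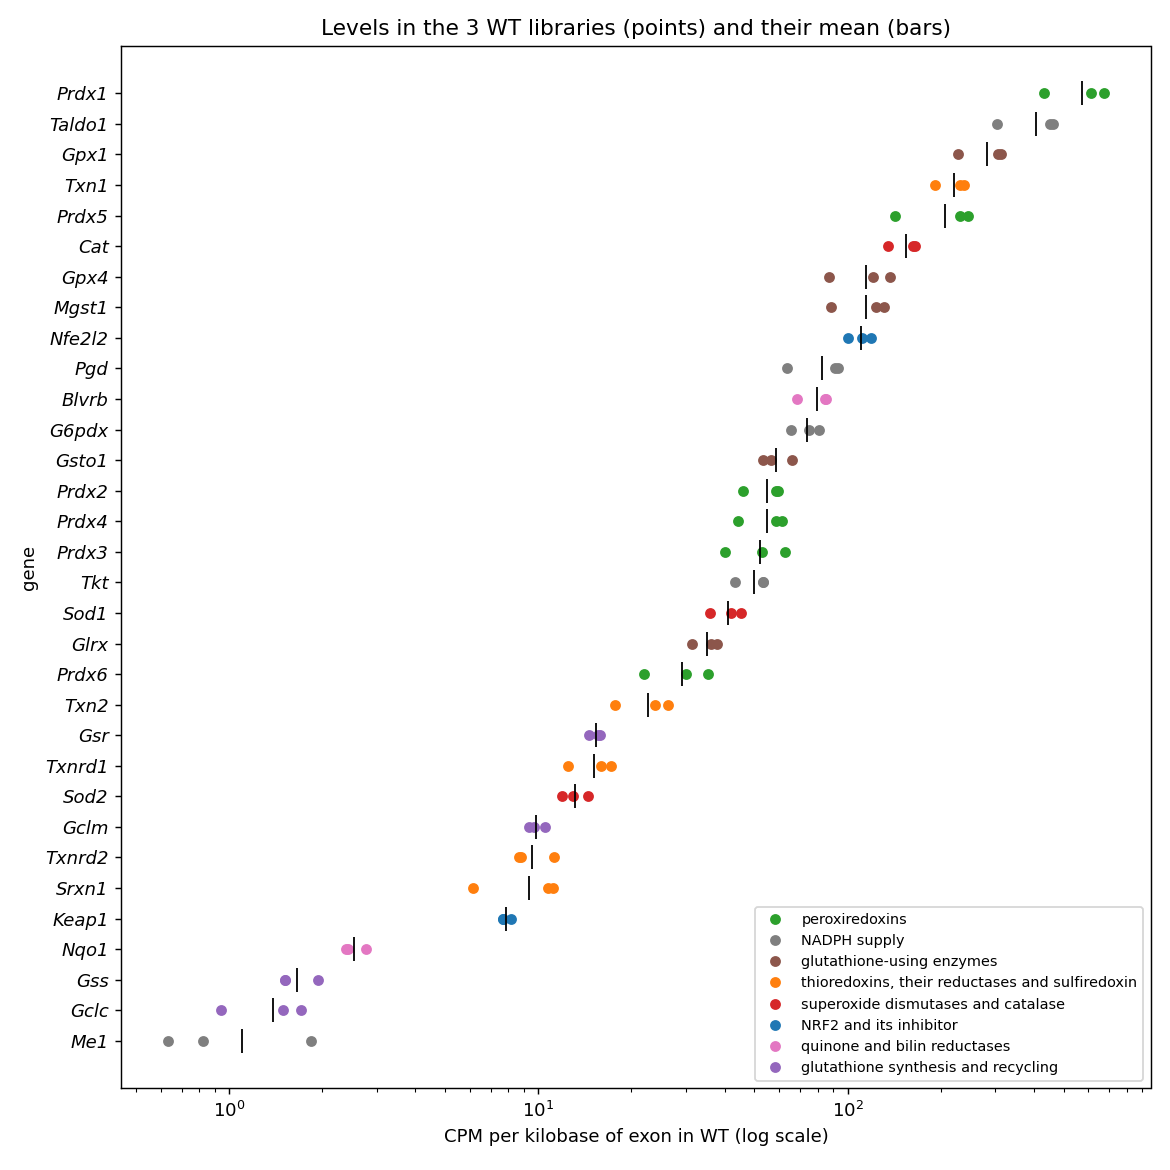
Level of each of the 32 genes in the 3 WT libraries, in CPM per kilobase of GENCODE M21 exon on a log axis, ordered by the mean (vertical bar) and colored by role. Prdx1 is at the top with a mean of 574 CPM per kilobase and Me1 at the bottom with 1.10.

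Promoter windows in RefSeq (GRCm38.p6) cover 250 bases before to 50 after a transcript start, and 29 of the 32 members had at least 1 (39 windows in all; Prdx6, Gclc and Gsr had none). The core of the antioxidant response element was searched as TGACNNNGC on both strands. It was found in 12.4% of all 32851 windows, and in 10 of the 39 member windows (25.6%), 1 in each of 10 members: Nfe2l2, Txnrd1, Srxn1, Prdx1, Sod1, Gclm, Mgst1, G6pdx, Pgd and Me1. The fuller form TGACTCAGC, which is contained in the first pattern, was in 0.454% of windows and in 2 members, Prdx1 and Me1. The matches of Prdx1, Sod1 and Txnrd1 are shown because Prdx1 is the most abundant member and holds the fuller form, and because Txnrd1 and Sod1 are those with a match among the 4 members called against WT below. Prdx4 had 1 window with no match. Each line is the stretch before the RefSeq start that no GENCODE M21 exon covers, and capitals mark the match, here on the minus strand and so read in reverse complement. A match describes letters and does not show binding.
Txnrd1 (chr10:82859009-82859178, plus strand): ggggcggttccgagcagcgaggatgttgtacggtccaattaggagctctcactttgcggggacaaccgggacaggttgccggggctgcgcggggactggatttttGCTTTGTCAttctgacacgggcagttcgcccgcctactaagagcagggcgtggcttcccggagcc
Prdx1 (chr4:116685349-116685543, plus strand): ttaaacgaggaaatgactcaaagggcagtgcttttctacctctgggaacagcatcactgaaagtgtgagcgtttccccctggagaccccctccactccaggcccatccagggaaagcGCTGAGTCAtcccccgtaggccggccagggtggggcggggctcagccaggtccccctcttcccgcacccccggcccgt
Sod1 (chr16:90220512-90220753, plus strand): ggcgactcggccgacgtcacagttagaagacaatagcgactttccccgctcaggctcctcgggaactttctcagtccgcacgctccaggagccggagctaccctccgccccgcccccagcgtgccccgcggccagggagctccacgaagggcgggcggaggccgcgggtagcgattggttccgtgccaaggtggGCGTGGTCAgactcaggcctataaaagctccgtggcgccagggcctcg
In Txnrd1, which has 3 windows, the match began 92 bases before the second RefSeq start. That of Prdx1 began 133 bases, and that of Sod1 56 bases, before the start.

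Among 13447 genes, 7.18% differed between the 6 genotypes by edgeR's quasi-likelihood test at a Benjamini-Hochberg adjusted p under 0.05, the threshold for a call throughout. Of the 32 members 3 were called: Prdx6 (adjusted p = 0.031), Prdx4 (0.0379) and Sod1 (0.0456), near the share over all genes. By group means the members had an uneven order. Tbk1+/- had the highest mean of the 6 genotypes for 20 of 32 members, against 23.2% of all genes tested. The double heterozygotes had the lowest mean for 17 of 32, against 24.7% of all genes. Without Tbk1+/- replicate 2, 10 members were called in the test over all genotypes, and without Tbk1+/- replicate 1 or 3 or any 1 of the double heterozygotes none was. Without 1 of the other 12 libraries the count lay between 1 and 7. Here and below, a share of all genes called belongs to the edgeR fit of all 18 libraries without covariates. The shares in other fits are not given, so a larger count there may not be particular to the members.

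**Figure D2:**
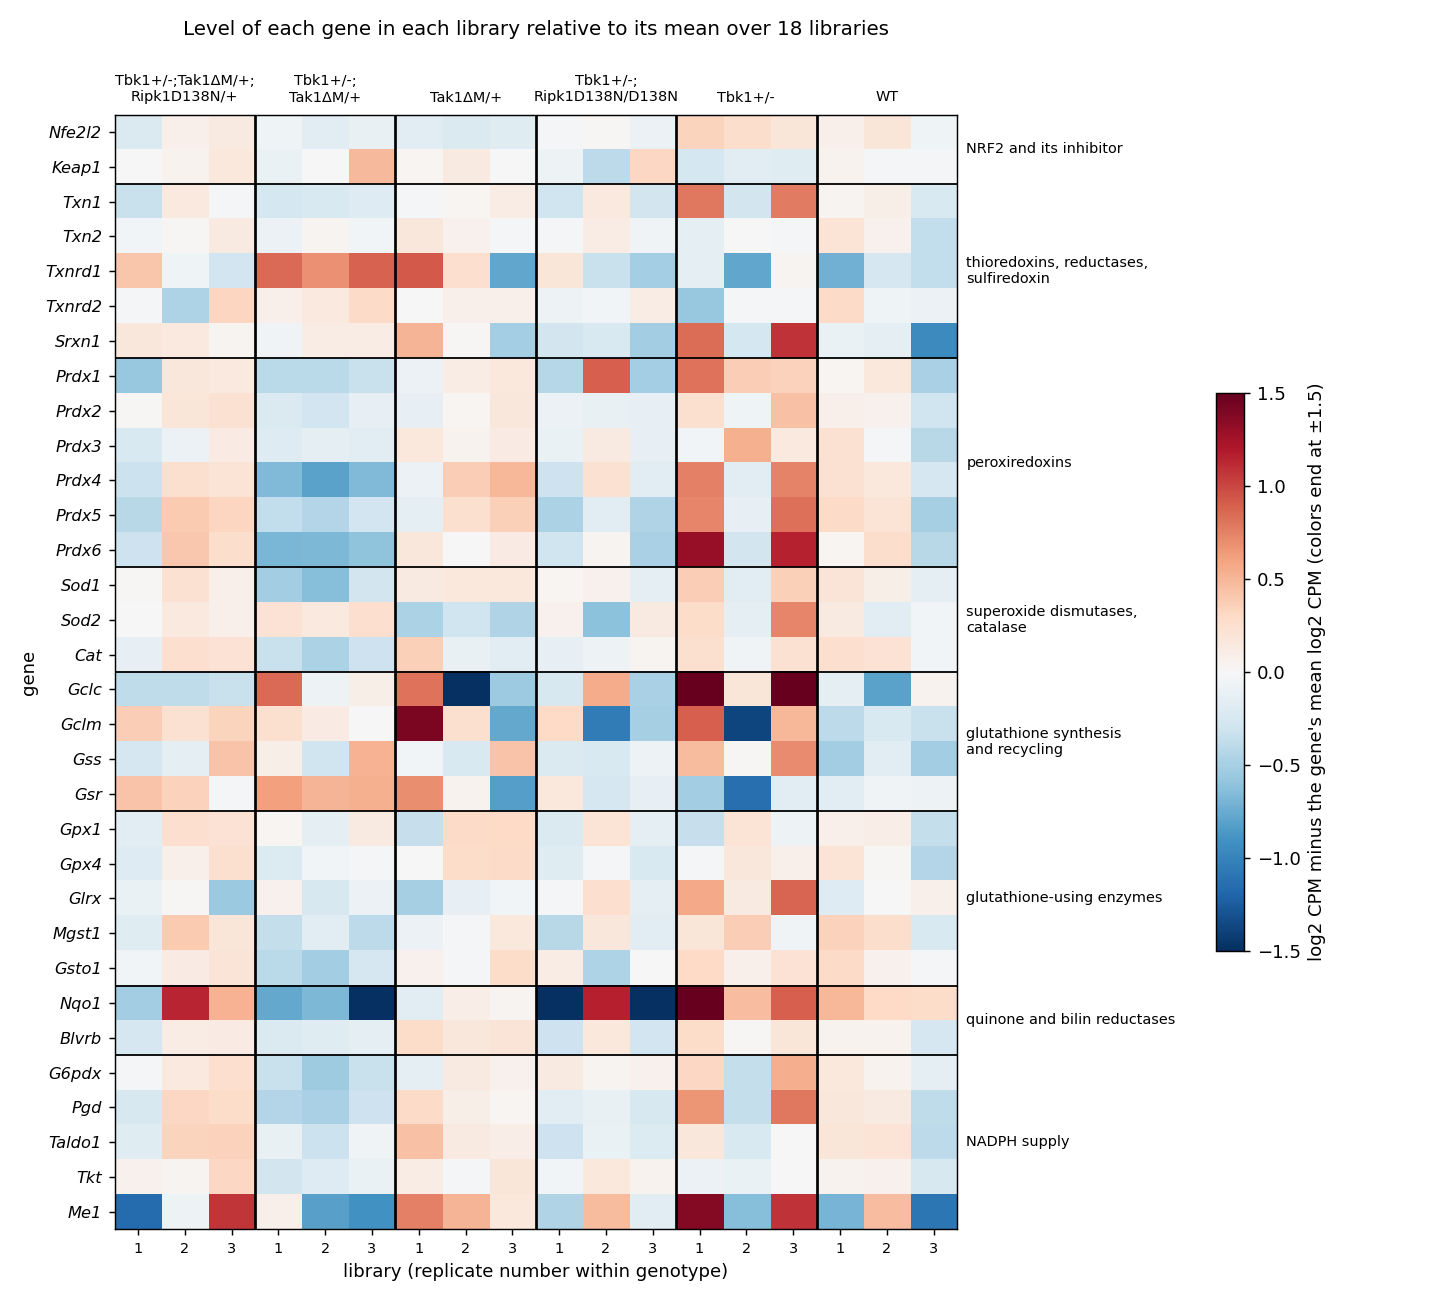
Heat map of the 32 genes (rows, grouped by role) in 18 libraries (columns, grouped by genotype), as log2 CPM minus the gene's mean over the libraries. Prdx4 and Prdx6 are blue in all 3 double heterozygotes, and Tbk1+/- replicates 1 and 3 are red for Prdx4, Prdx5 and Prdx6 while replicate 2 is not.

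Against WT, the double heterozygotes showed 4 calls among the 32 members. Txnrd1, the cytosolic thioredoxin reductase that keeps thioredoxin reduced with NADPH, rose. Sod1, Cat and Gsto1, a glutathione transferase of the omega class, fell. The background was 6.07% of genes called, 2.16% higher and 3.9% lower. The median log2 fold change was -0.158 over the members and 0.004 over all genes. The libraries of both groups did not overlap for 12 members (37.5%), against 29.6% of all genes. The count rested on single libraries. Without WT replicate 3 there were 4 calls, 3 of them shared (Txnrd1 was lost and Prdx4 gained), without double heterozygote replicate 3 there was 1, and without any of the other 4 libraries there was none. With the 5 libraries of doubtful Tbk1 label left out of the fit, which enter here only through the common estimate of spread, 2 calls were kept (Txnrd1 and Gsto1). A fit of these 6 libraries alone called 9.

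Against Tbk1+/-, the same double heterozygote libraries showed 16 calls, 2 higher and 14 lower. Txnrd1 and Gsr, the glutathione reductase, rose. Those that fell were Nfe2l2, Txn1, Prdx1, Prdx2, Prdx4, Prdx5, Prdx6, Sod1, Cat, Glrx, Gsto1, Nqo1, G6pdx and Pgd. The background was 14.7% of genes called, 6.44% higher and 8.24% lower, and the median log2 fold change was -0.45 over the members and 0.007 over all genes. Libraries did not overlap for 20 members (62.5%), against 33.6% of all genes. The count fell to 5 without Tbk1+/- replicate 1, 8 without Tbk1+/- replicate 3, and 7, 5 and 6 without double heterozygote replicates 1, 2 and 3. Without Tbk1+/- replicate 2 there were 16, all lower and 14 of them shared. Without the 5 libraries of doubtful Tbk1 label there were 15, all shared, and Prdx2 was lost.

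Against Tak1ΔM/+, the double heterozygotes had lower Prdx4 and Sod1 and no other call (2 of 32, against 2.79% of all genes called, 0.736% higher and 2.05% lower). The median was -0.283, against 0.006 over all genes, and 12 members had an unadjusted p under 0.05, against 15.9% of all genes. Both calls were lost without Tak1ΔM/+ replicate 2 or 3 and without double heterozygote replicate 1 or 2, and that of Prdx4 also without double heterozygote replicate 3. Without the 5 libraries of doubtful Tbk1 label Prdx4 alone was called. These comparisons share the double heterozygote libraries, so they are not independent of each other.

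The libraries labelled triple mutant, set against the double heterozygotes, had higher Sod1 and no other call (1 of 32, against 2.45% of all genes called, 1.84% higher and 0.617% lower). The median log2 fold change was 0.184 over the members and 0.003 over all genes, with 24 members above 0. This comparison shares the double heterozygote libraries with those above, so it is not independent of them. The question here is what 1 inactive Ripk1 allele changes, but the Tbk1 level of these libraries also differs from the label, and since that holds for all 3 no fit without them was possible. The call was lost without double heterozygote replicate 1 or 2 and without replicate 2 or 3 labelled triple mutant. Without replicate 1 labelled triple mutant there were 3 calls.

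The single changes gave no calls among the members. Tbk1+/- against WT had 0 of 32 by edgeR, DESeq2 and limma-voom, with a background of 0.0521% of genes called, 0.0223% higher and 0.0297% lower. At an unadjusted p under 0.05 there were 6, against 10.2% of all genes. Tak1ΔM/+ against WT also had 0 of 32 by the same 3 tools, with a background of 0.0149%, 0.00744% higher and 0.00744% lower, and 2 at an unadjusted p under 0.05, against 9.47% of all genes. The libraries labelled Tbk1/Ripk1 mutant against Tbk1+/- had 0 of 32 by edgeR and limma-voom and 5 lower by DESeq2. The background of edgeR calls there was 0.521%, 0.283% higher and 0.238% lower. The share of all genes called by DESeq2 is not given, so the 5 calls have no background. At an unadjusted p under 0.05 there were 13 members, against 15.3% of all genes. The medians over the members were 0.231 for Tbk1+/- against WT, 0.12 for Tak1ΔM/+ against WT and -0.293 for the libraries labelled Tbk1/Ripk1 mutant against Tbk1+/-.

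The test of the interaction asks whether the 2 alleles together differ from the sum of each alone on the log2 scale. It called 2 members, Prdx4 and Prdx6, both lower (2 of 32, against 1.75% of all genes called, 0.528% higher and 1.22% lower). The median over the members was -0.564, against 0.001 over all genes, and 27 of 32 were below 0. Without Tbk1+/- replicate 2, 9 members were called lower, without Tak1ΔM/+ replicate 1 there were 2 (Gsr higher and Prdx4 lower), and without any of the other 10 libraries none. None was called without the 5 libraries of doubtful Tbk1 label either.

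**Figure D3:**
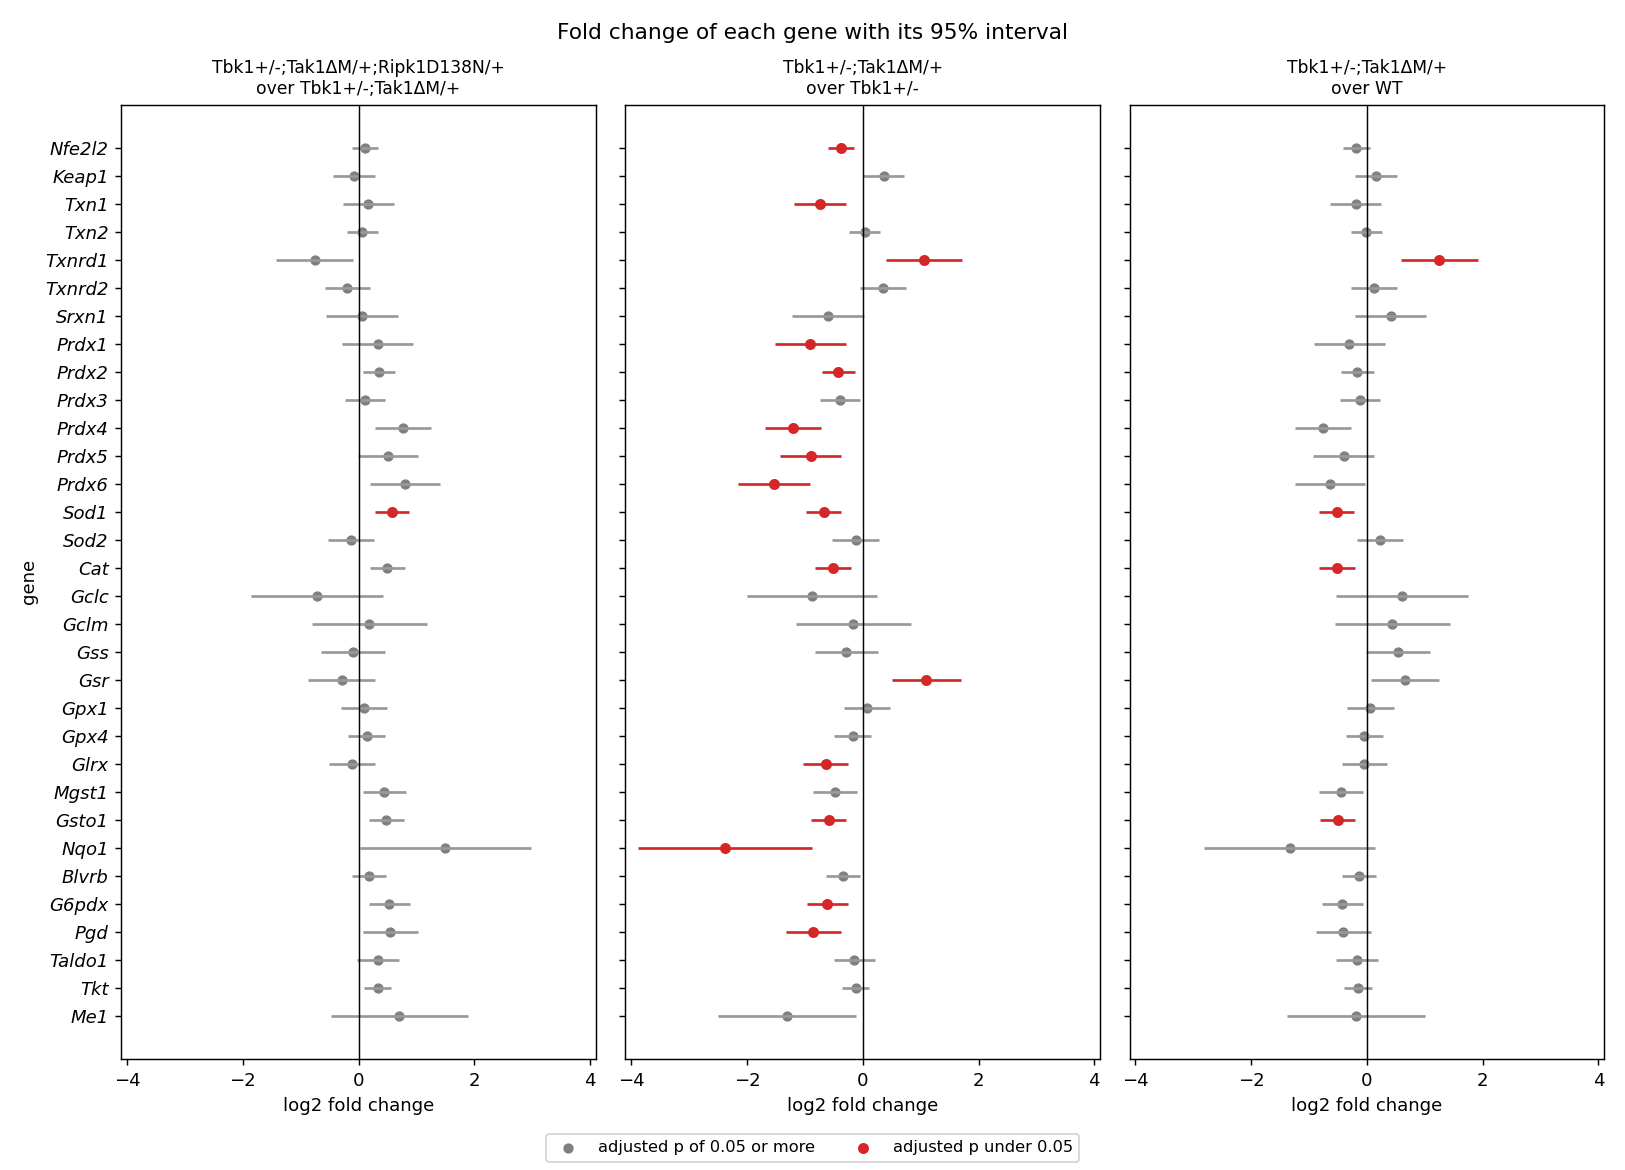
Log2 fold change of each gene (points) with its 95% confidence interval (lines) for 3 comparisons, with calls in red. Prdx4, Prdx6, Sod1 and Gsto1 lie left of 0 in double heterozygotes over Tbk1+/- and right of 0 in the libraries labelled triple mutant over double heterozygotes, where Sod1 alone is called.

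The share of counts from 13 mitochondrially encoded protein-coding genes moved with these groups. It was 0.370% to 1.10% in the libraries labelled triple mutant, 0.367% to 0.512% in the double heterozygotes and averaged 1.12% ± 0.583 (SD, n = 3) in Tak1ΔM/+, where it overlapped with the double heterozygotes. It was 0.449% to 1.57% in the libraries labelled Tbk1/Ripk1 mutant. In Tbk1+/- it was 1.82% to 2.20%, and in WT 0.671% to 1.62%, so neither group overlapped with the double heterozygotes. Genotype and this share therefore cannot be told apart in those comparisons. With this share as a covariate every call among the members ended, in each comparison.

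Markers of several cell types moved with the groups as well. The 10 microglial markers summed to 6074 to 6740.4 CPM in the double heterozygotes, 7219 to 8069 CPM in Tbk1+/- and 6431 to 6751 CPM in WT. Cx3cr1, P2ry12, Fcrls and Itgam were lower in the double heterozygotes than in WT without overlap, and Aif1, C1qa and Trem2 were higher. Against Tbk1+/-, P2ry12, Csf1r and Itgam were lower without overlap. Cx3cr1 had 293, 262 and 349 CPM in the double heterozygotes, against 453, 456 and 452 CPM in WT, and C1qa had 1394, 1213 and 1424 CPM, against 1009.6, 929 and 1120.3 CPM in WT. Fcrls had 179.6, 177 and 202 CPM in the double heterozygotes and 810.1, 167 and 948 CPM in Tbk1+/-. Of 8 oligodendrocyte lineage markers, 4 were higher in the double heterozygotes than in WT without overlap and none lower, among them Olig2 (4.28 to 6.02 CPM, at most 2.92 CPM in all other libraries) and Pdgfra (4.93 to 9.81 CPM, at most 3.03 CPM). Astrocyte markers summed to 21.1 to 29.5 CPM in the double heterozygotes, 28.98 to 38.6 CPM in Tbk1+/- and 43.5 to 56.0 CPM in WT. The sum of border macrophage and monocyte markers was 232 to 248 CPM in the double heterozygotes, 347 to 521 CPM in Tbk1+/- and 249 to 303 CPM in WT. Among border macrophage markers, Lyve1 had 98.2, 0.571 and 156 CPM in Tbk1+/- and at most 8.78 CPM in every other library. The part of the marker shifts in the results was not tested.

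Nfe2l2, which encodes NRF2 itself (ENSMUSG00000015839, chromosome 2, 75675513 to 75704641, GRCm38), varied little. Nfe2l2 had 342, 422 and 439 CPM in the libraries labelled triple mutant, 382, 356 and 370.2 CPM in the double heterozygotes and 358, 342 and 352 CPM in Tak1ΔM/+. Nfe2l2 stood at 394, 405 and 375 CPM in the libraries labelled Tbk1/Ripk1 mutant, 505, 479 and 452 CPM in Tbk1+/- and 422, 453 and 381 CPM in WT. All 3 Tbk1+/- values lay above all 3 double heterozygote values and above all 3 Tak1ΔM/+ values. Nfe2l2 fell in the double heterozygotes against Tbk1+/-, by 0.37 on the log2 scale (SE 0.11, adjusted p = 0.0252). That call ended without Tbk1+/- replicate 1 or double heterozygote replicate 1, 2 or 3 (highest adjusted p 0.091). In the double heterozygotes over WT the difference was -0.18 ± 0.11 (SE, adjusted p = 0.369). Keap1, the adaptor that delivers NRF2 for degradation, shares exon bases with a gene on the opposite strand, and this library chemistry does not mark the strand. Keap1 had 36.8, 38.0 and 41.1 CPM in the libraries labelled triple mutant, 34.3, 37.0 and 51.2 CPM in the double heterozygotes and 37.5, 40.4 and 36.6 CPM in Tak1ΔM/+. Keap1 stood at 34.9, 27.9 and 45.4 CPM in the libraries labelled Tbk1/Ripk1 mutant, 30.5, 32.7 and 32.4 CPM in Tbk1+/- and 38.2, 36.0 and 36.1 CPM in WT. Its highest value was in double heterozygote replicate 3, and the double heterozygotes lay above Tbk1+/- without overlap but overlapped with WT. Keap1 was not called in any comparison, and its log2 fold change was 0.36 ± 0.17 (SE) in the double heterozygotes against Tbk1+/-.

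Among the thioredoxin genes the reductase and its substrate moved in opposite directions in the double heterozygotes against Tbk1+/-. Txnrd1 (ENSMUSG00000020250, chromosome 10, 82833951 to 82897712) reduces thioredoxin and is a textbook NRF2 target. Txnrd1 had 194, 139 and 119 CPM in the libraries labelled triple mutant, 262, 235 and 269 CPM in the double heterozygotes and 274, 173 and 84.9 CPM in Tak1ΔM/+. Txnrd1 stood at 165, 116 and 102 CPM in the libraries labelled Tbk1/Ripk1 mutant, 132, 84.6 and 149.8 CPM in Tbk1+/- and 88.4, 122 and 113 CPM in WT. The double heterozygotes were all above WT and Tbk1+/-, and Tak1ΔM/+ spread across nearly the whole range. Txnrd1 rose 2.37-fold in the double heterozygotes against WT (log2 fold change 1.25 ± 0.32 SE, adjusted p = 0.0264) and by 1.06 on the log2 scale against Tbk1+/- (SE 0.31, adjusted p = 0.0298). The call against WT was lost when any 1 of the 6 libraries was left out, with adjusted p-values of 0.0591 to 0.112 and log2 fold changes of 1.11 to 1.33. The call against Tbk1+/- was kept only without Tbk1+/- replicate 3 (adjusted p-values 0.0405 to 0.102). In the libraries labelled triple mutant the log2 fold change against the double heterozygotes was -0.76 ± 0.31 (SE, adjusted p = 0.238), with no overlap between the libraries.

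Txn1, the cytosolic thioredoxin that passes electrons to peroxiredoxins, followed another order. Txn1 had 187, 261 and 233 CPM in the libraries labelled triple mutant, 198, 202 and 207 CPM in the double heterozygotes and 233, 242 and 256 CPM in Tak1ΔM/+. Txn1 stood at 192, 262 and 195 CPM in the libraries labelled Tbk1/Ripk1 mutant, 409, 196 and 405 CPM in Tbk1+/- and 243, 250.4 and 202 CPM in WT. Tbk1+/- replicates 1 and 3 stood above all other libraries, while Tbk1+/- replicate 2 lay just below the double heterozygotes. Txn1 fell in the double heterozygotes against Tbk1+/- (log2 fold change -0.74 ± 0.21 SE, adjusted p = 0.0257). That call was kept only without Tbk1+/- replicate 2 (adjusted p-values 0.000263 to 0.129). Srxn1, the sulfiredoxin that repairs overoxidized peroxiredoxins, was called in no comparison but held 59.8, 27.9 and 71.2 CPM in Tbk1+/-, against 31.3, 30.3 and 17.3 CPM in WT. The mitochondrial genes Txn2 and Txnrd2 varied 1.48-fold and 1.85-fold across the 18 libraries and were not called.

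All 6 peroxiredoxins had a lower mean in the double heterozygotes than in WT, Tbk1+/- and Tak1ΔM/+, as had 30.9% of all genes. For all 6 the libraries did not overlap with those of Tbk1+/- (33.6% of all genes) or of Tak1ΔM/+ (24.6%). For 2 of 6 they did not overlap with WT, near the 29.6% of all genes. Against Tbk1+/- 5 of 6 fell (8.24% of all genes), with a median log2 fold change of -0.903 over the family. Against Tak1ΔM/+ 1 of 6 fell (2.05% of all genes), and against WT none was called. The largest differences were in Prdx6 and Prdx4.

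Prdx6 (ENSMUSG00000026701, chromosome 1, 161240112 to 161251219) is the 1-cysteine family member, which uses glutathione and also acts on phospholipids. Prdx6 had 114, 186 and 169 CPM in the libraries labelled triple mutant, 87.8, 88.3 and 93.1 CPM in the double heterozygotes and 159, 141 and 153 CPM in Tak1ΔM/+. Prdx6 stood at 115, 145 and 101 CPM in the libraries labelled Tbk1/Ripk1 mutant, 349, 117 and 314 CPM in Tbk1+/- and 144, 169 and 106 CPM in WT. The double heterozygotes lay close together and below all other libraries, while Tbk1+/- replicates 1 and 3 stood far above all others. Prdx6 fell in the double heterozygotes to 0.345 of its Tbk1+/- level (log2 fold change -1.53 ± 0.29 SE, adjusted p = 0.00243), and this call held without each of the 6 libraries in turn. Against WT the change was -0.64 ± 0.29 (SE, adjusted p = 0.223) and against Tak1ΔM/+ -0.75 ± 0.29 (SE, adjusted p = 0.198). The interaction was -1.65 ± 0.41 (SE, adjusted p = 0.0493), a call kept in 1 of 12 fits that each left out 1 library, the one without Tbk1+/- replicate 2. In Tbk1+/- against WT Prdx6 was at 0.90 ± 0.29 (SE, adjusted p = 0.326).

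Prdx4 (ENSMUSG00000025289, chromosome X, 155323918 to 155340754) is the peroxiredoxin of the endoplasmic reticulum, where it uses peroxide in protein folding. Prdx4 had 88.6, 131 and 128 CPM in the libraries labelled triple mutant, 70.1, 63.6 and 70.0 CPM in the double heterozygotes and 104, 143 and 156 CPM in Tak1ΔM/+. Prdx4 stood at 89.1, 129.7 and 98.7 CPM in the libraries labelled Tbk1/Ripk1 mutant, 186, 99.1 and 185 CPM in Tbk1+/- and 129.6, 123 and 93.3 CPM in WT. Every double heterozygote library was lower than every other library. Prdx4 fell against Tbk1+/- (log2 fold change -1.21 ± 0.23 SE, adjusted p = 0.00243, kept without each of the 6 libraries) and against Tak1ΔM/+ (-0.98 ± 0.23 SE, adjusted p = 0.0293). The call against Tak1ΔM/+ was kept only without Tak1ΔM/+ replicate 1, with adjusted p-values of 0.0141 to 0.146. Against WT it missed the threshold (-0.76 ± 0.23 SE, adjusted p = 0.0568). The interaction was -1.42 ± 0.32 (SE, adjusted p = 0.0337) and was kept in 2 of 12 fits without 1 library. Prdx4 is X-linked, and Y-linked genes summed to 75.9 to 99.5 CPM in the double heterozygotes, 0 to 3.02 in Tak1ΔM/+, 59.8 to 187 in Tbk1+/- and 0 to 107 in WT, so the mix of sexes differed. With Y-linked counts as a covariate Prdx4 was called against Tak1ΔM/+ (-1.34, adjusted p = 0.00814), Tbk1+/- (-1.20, 0.00131) and WT (-0.89, 0.0192). Between the double heterozygotes and Tak1ΔM/+ the Y-linked counts did not overlap. The covariate therefore cannot separate sex from genotype in that comparison.

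**Figure D4:**
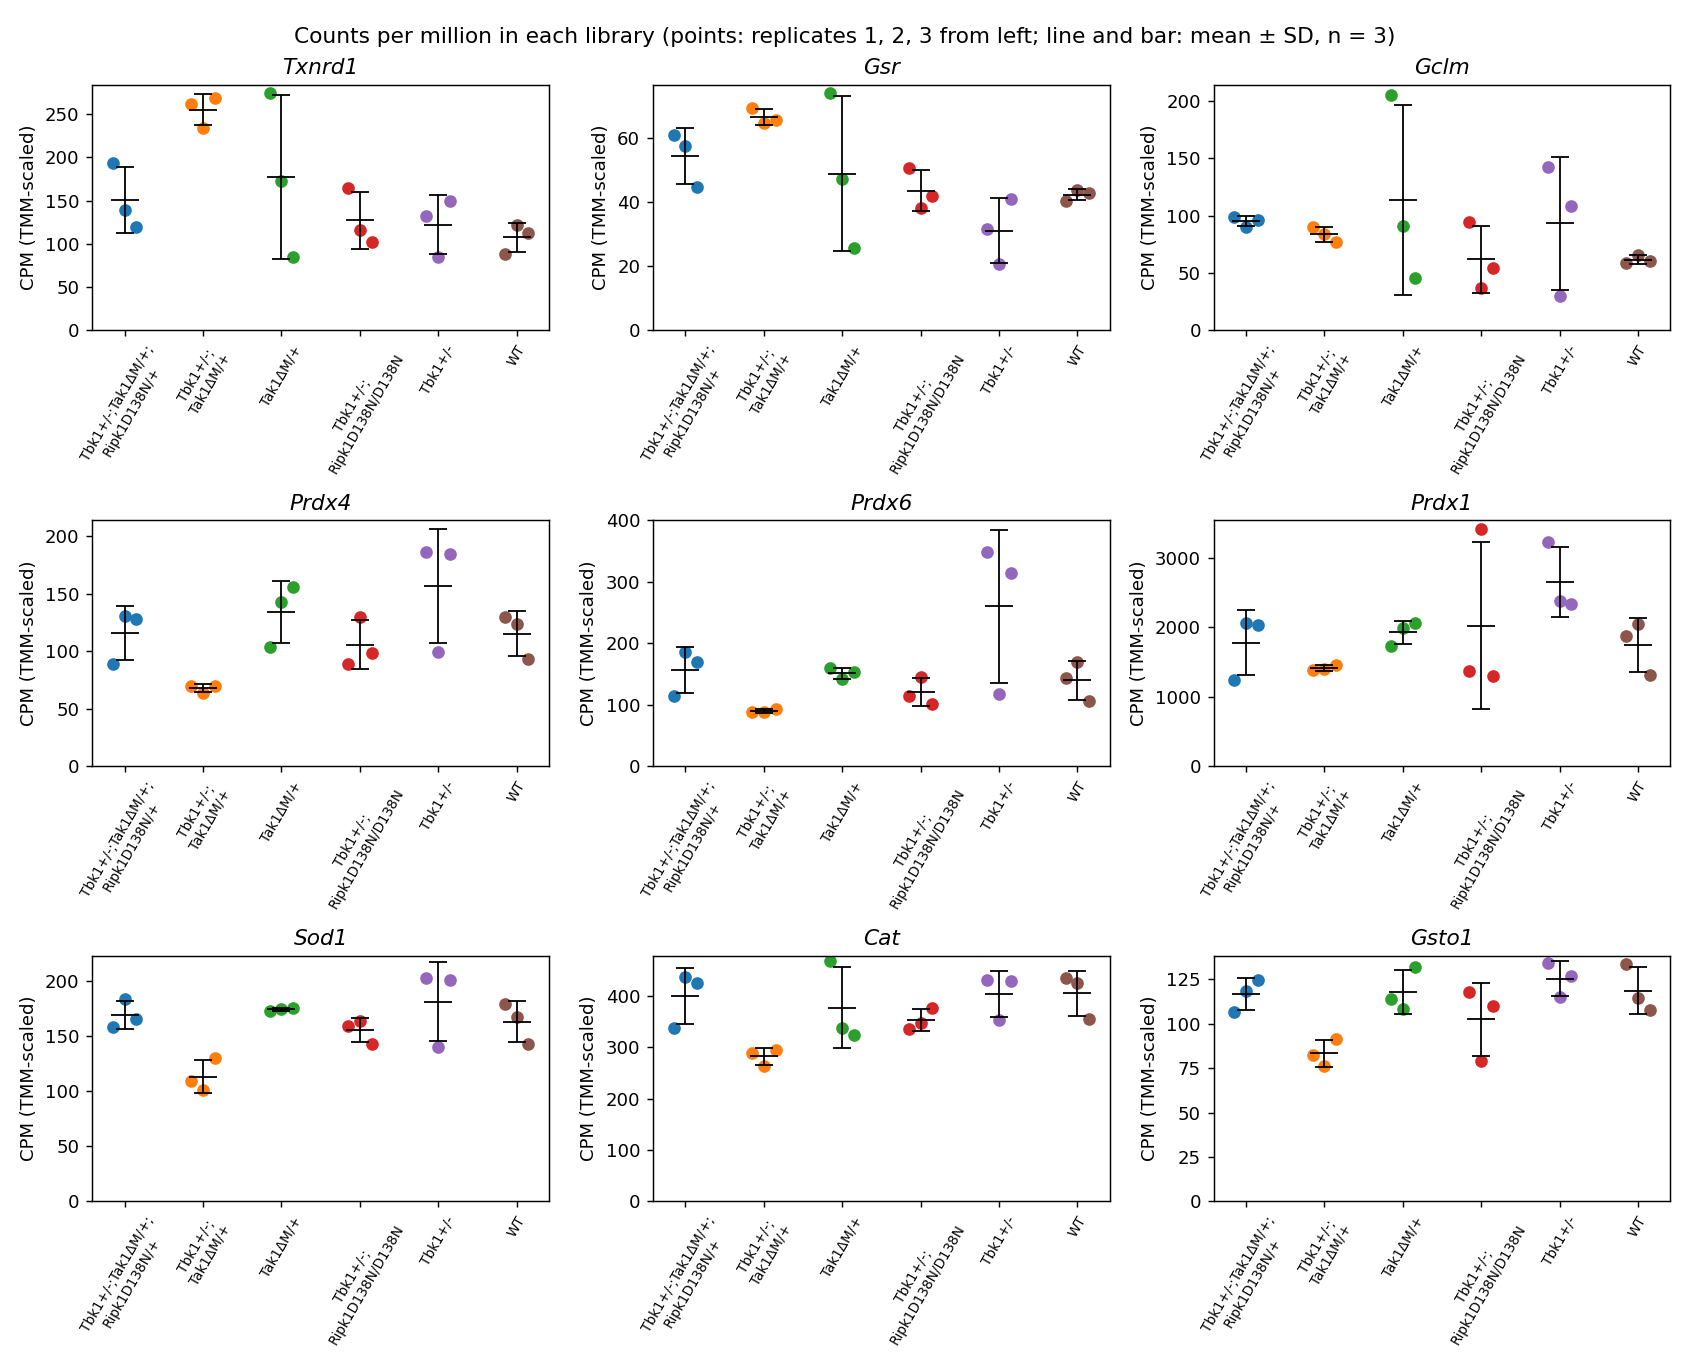
CPM of 9 genes in every library (points) with the mean ± SD of each genotype (n = 3), from the libraries labelled triple mutant on the left to WT on the right. For Prdx4 and Prdx6 the 3 double heterozygotes are tightly grouped at the bottom, and for Txnrd1 and Gsr they are above all 6 Tbk1+/- and WT libraries.

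Prdx1, the most abundant member, is a cytosolic peroxiredoxin of the typical 2-cysteine type. Prdx1 had 1239, 2069 and 2028 CPM in the libraries labelled triple mutant, 1386, 1392 and 1463 CPM in the double heterozygotes and 1734, 1989 and 2059 CPM in Tak1ΔM/+. Prdx1 stood at 1369, 3412 and 1295 CPM in the libraries labelled Tbk1/Ripk1 mutant, 3229.9, 2381 and 2343 CPM in Tbk1+/- and 1868, 2052 and 1316 CPM in WT. The highest library was replicate 2 labelled Tbk1/Ripk1 mutant, whose partners were among the 4 lowest. Prdx1 fell in the double heterozygotes against Tbk1+/- (-0.91 ± 0.29 SE on the log2 scale, adjusted p = 0.0451), a call kept only without Tbk1+/- replicate 2 (leave-one-out adjusted p-values 0.0464 to 0.17). Prdx2, its cytosolic relative, shares exon bases with 2 genes on the opposite strand, Junb among them. Prdx2 had 174, 195 and 203 CPM in the libraries labelled triple mutant, 148, 142 and 158 CPM in the double heterozygotes and 159, 176 and 195 CPM in Tak1ΔM/+. Prdx2 stood at 162, 159 and 159 CPM in the libraries labelled Tbk1/Ripk1 mutant, 203, 165 and 233 CPM in Tbk1+/- and 182, 179.6 and 140.1 CPM in WT. All double heterozygotes lay below all Tbk1+/- libraries, with a log2 fold change of -0.42 ± 0.13 (SE, adjusted p = 0.0408), and that call too was kept only without Tbk1+/- replicate 2 (leave-one-out adjusted p-values 0.00704 to 0.175). The call of Prdx2 was kept in only 5 of 10 other settings. Among those that lost it were the fits without the libraries of doubtful Tbk1 label and of the compared libraries alone.

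Prdx5, found in mitochondria, peroxisomes and cytosol, overlaps Trmt112 on the opposite strand. Prdx5 had 321, 567 and 537 CPM in the libraries labelled triple mutant, 332, 318 and 353 CPM in the double heterozygotes and 391, 509.7 and 549 CPM in Tak1ΔM/+. Prdx5 stood at 310.2, 385 and 315 CPM in the libraries labelled Tbk1/Ripk1 mutant, 713, 396 and 761 CPM in Tbk1+/- and 526, 496 and 304 CPM in WT. Tbk1+/- replicates 1 and 3 were again the highest libraries. Prdx5 fell in the double heterozygotes against Tbk1+/- (-0.90 ± 0.25 SE, adjusted p = 0.0213), kept only without Tbk1+/- replicate 2 (leave-one-out adjusted p-values 0.00245 to 0.0937). Prdx3, the mitochondrial peroxiredoxin, was not called and averaged 70.6 ± 1.22 CPM in the double heterozygotes, against 92.9 ± 19.3 CPM in Tbk1+/- (SD, n = 3 each).

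Of the enzymes that remove superoxide and hydrogen peroxide directly, Sod1 and Cat fell in the double heterozygotes and Sod2 was not called. Sod1 (ENSMUSG00000022982, chromosome 16, 90220754 to 90226329) is the cytosolic superoxide dismutase. Sod1 had 158, 183 and 165 CPM in the libraries labelled triple mutant, 109, 101 and 129.9 CPM in the double heterozygotes and 173, 175 and 176 CPM in Tak1ΔM/+. Sod1 stood at 159, 164 and 143 CPM in the libraries labelled Tbk1/Ripk1 mutant, 202, 140.1 and 201 CPM in Tbk1+/- and 179, 167 and 143 CPM in WT. The double heterozygotes were the lowest 3 of the 18 libraries, and the 3 Tak1ΔM/+ libraries nearly coincided. Sod1 fell against WT (-0.52 ± 0.14 SE on the log2 scale, adjusted p = 0.0364), Tbk1+/- (-0.68 ± 0.14 SE, 0.0043) and Tak1ΔM/+ (-0.62 ± 0.14 SE, 0.0256). In the libraries labelled triple mutant it rose against the double heterozygotes (0.58 ± 0.14 SE, adjusted p = 0.0377). Leaving out 1 library at a time kept the call in 6 of 6 fits against Tbk1+/-, and in 2 of 6 fits each against WT, against Tak1ΔM/+ and for the libraries labelled triple mutant. The highest adjusted p-values were 0.127, 0.123 and 0.188 in those 3 comparisons.

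Cat (ENSMUSG00000027187, chromosome 2, 103453849 to 103485160) encodes the peroxisomal catalase. Cat had 336, 436 and 424 CPM in the libraries labelled triple mutant, 289, 264 and 295 CPM in the double heterozygotes and 467, 338 and 324 CPM in Tak1ΔM/+. Cat stood at 335, 348 and 376 CPM in the libraries labelled Tbk1/Ripk1 mutant, 430.1, 352 and 429 CPM in Tbk1+/- and 433, 425 and 354 CPM in WT. The double heterozygotes were below every other library. Cat fell against WT (-0.52 ± 0.15 SE, adjusted p = 0.0437) and Tbk1+/- (-0.51 ± 0.15 SE, 0.0243). The first call was kept only without WT replicate 3 (adjusted p-values 0.0337 to 0.135) and the second only without Tbk1+/- replicate 2 (0.0105 to 0.0842). Sod2, the manganese enzyme of mitochondria, was not called and was at 153 ± 5.33 CPM in the double heterozygotes, against 100.2 ± 6.46 CPM in Tak1ΔM/+ (SD, n = 3 each) with no overlap (adjusted p = 0.103).

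In glutathione synthesis and recycling only the recycling enzyme was called. Gsr (ENSMUSG00000031584, chromosome 8, 33652523 to 33698163) reduces oxidized glutathione with NADPH. Gsr had 60.9, 57.4 and 44.5 CPM in the libraries labelled triple mutant, 69.2, 64.5 and 65.6 CPM in the double heterozygotes and 73.8, 47.1 and 25.7 CPM in Tak1ΔM/+. Gsr stood at 50.6, 38.2 and 41.8 CPM in the libraries labelled Tbk1/Ripk1 mutant, 31.6, 20.7 and 40.8 CPM in Tbk1+/- and 40.3, 43.6 and 42.9 CPM in WT. The double heterozygotes were above all WT and all Tbk1+/- libraries, and the single highest value was Tak1ΔM/+ replicate 1. Gsr rose 2.14-fold against Tbk1+/- (log2 fold change 1.10 ± 0.28 SE, adjusted p = 0.014), a call that ended without Tbk1+/- replicate 2 (adjusted p = 0.0527). Against WT it was at 0.65 ± 0.28 (SE, adjusted p = 0.189). Gclm and Gclc, the modifier and catalytic subunits of the first step of glutathione synthesis, were not called and differed widely between replicates. Gclm ranged 6.92-fold over the libraries and Gclc 14.1-fold, and Tak1ΔM/+ alone held 205, 90.6 and 45.3 CPM of Gclm. Gss, the second enzyme of synthesis, had 13.6, 10.4 and 18.3 CPM in the double heterozygotes, against 8.93, 11.5 and 8.93 CPM in WT, and was not called.

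Among enzymes that use glutathione, Gsto1 and Glrx were called. Gsto1 (ENSMUSG00000025068, chromosome 19, 47854970 to 47864790) is an omega-class transferase with thiol reductase activity. Gsto1 had 107, 119 and 125 CPM in the libraries labelled triple mutant, 82.7, 76.4 and 91.5 CPM in the double heterozygotes and 114, 108 and 132 CPM in Tak1ΔM/+. Gsto1 stood at 118, 79.2 and 110.2 CPM in the libraries labelled Tbk1/Ripk1 mutant, 135, 115 and 127 CPM in Tbk1+/- and 134, 115 and 108 CPM in WT. The double heterozygotes were lower than all libraries but replicate 2 labelled Tbk1/Ripk1 mutant. Gsto1 fell against WT (-0.51 ± 0.14 SE, adjusted p = 0.0463) and Tbk1+/- (-0.59 ± 0.14 SE, 0.0116). The call against Tbk1+/- held in 6 of 6 fits without 1 library, and that against WT in 1 of 6, the one without WT replicate 3 (adjusted p-values 0.0465 to 0.162). Glrx, the cytosolic glutaredoxin that removes glutathione from proteins, was high in Tbk1+/-. Glrx had 184, 200.2 and 134 CPM in the libraries labelled triple mutant, 206, 167 and 186 CPM in the double heterozygotes and 139.9, 181 and 191 CPM in Tak1ΔM/+. Glrx stood at 195, 234 and 180.1 CPM in the libraries labelled Tbk1/Ripk1 mutant, 292, 217 and 362 CPM in Tbk1+/- and 172, 198 and 208 CPM in WT. It fell in the double heterozygotes against Tbk1+/- (-0.64 ± 0.19 SE, adjusted p = 0.0272). That call ended without Tbk1+/- replicate 1 or 3 or double heterozygote replicate 2 or 3, with a highest adjusted p of 0.145.

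The peroxidases Gpx1 and Gpx4, of which Gpx4 acts on lipid peroxides, and the microsomal transferase Mgst1 were called in no comparison. Mgst1 was at 169 ± 15.3 CPM in the double heterozygotes and 236 ± 33.7 CPM in Tbk1+/- (SD, n = 3 each, adjusted p = 0.0872). Gpx1 ranged 1.57-fold and Gpx4 1.66-fold over the 18 libraries. A transcript of another gene is nearly identical to Gpx4 (at least 95% identity over 200 bases), and its counts equalled 8.64% of those of Gpx4, so the counts of Gpx4 are less certain.

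Nqo1, the quinone reductase that is a standard readout of NRF2, was among the lowest members. Nqo1 had 2.13, 6.73 and 4.39 CPM in the libraries labelled triple mutant, 1.80, 1.92 and 0.996 CPM in the double heterozygotes and 2.73, 3.28 and 3.16 CPM in Tak1ΔM/+. Nqo1 stood at 0.827, 6.87 and 0.751 CPM in the libraries labelled Tbk1/Ripk1 mutant, 14.3, 4.23 and 5.70 CPM in Tbk1+/- and 4.31, 3.77 and 3.71 CPM in WT. Tbk1+/- replicate 1 stood far above the other 17 libraries. Nqo1 fell in the double heterozygotes against Tbk1+/- (-2.38 ± 0.71 SE on the log2 scale, adjusted p = 0.0324). The call was kept in 2 of 6 fits without 1 library, those without Tbk1+/- replicate 2 or 3, and the log2 fold change over the 6 fits was -2.69 to -1.68. Blvrb, which reduces biliverdin and flavins, was not called and differed little between the libraries, at 202 ± 5.52 CPM in the double heterozygotes against 221 ± 26.4 CPM in WT (SD, n = 3 each).

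All 5 genes of NADPH supply had lower means in the double heterozygotes than in WT, Tbk1+/- and Tak1ΔM/+, as had 30.9% of all genes. Of these 5, 2 fell against Tbk1+/-, against 8.24% of all genes. G6pdx (ENSMUSG00000031400, chromosome X, 74409483 to 74429194) is the first and rate-limiting enzyme of the pentose phosphate pathway. It is X-linked and overlaps Ikbkg on the opposite strand. G6pdx had 219, 248 and 267 CPM in the libraries labelled triple mutant, 177, 154 and 177 CPM in the double heterozygotes and 202, 245 and 234 CPM in Tak1ΔM/+. G6pdx stood at 246, 231 and 233 CPM in the libraries labelled Tbk1/Ripk1 mutant, 278, 175 and 326 CPM in Tbk1+/- and 249, 232 and 202 CPM in WT. Tbk1+/- replicate 2 lay within the range of the double heterozygotes and the other 2 Tbk1+/- libraries were the highest of all. G6pdx fell against Tbk1+/- (-0.61 ± 0.17 SE, adjusted p = 0.0208). The call ended without Tbk1+/- replicate 1 or 3 or double heterozygote replicate 2 or 3, with a highest adjusted p of 0.116.

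Pgd (ENSMUSG00000028961, chromosome 4, 149149991 to 149166771) makes the second NADPH of that pathway. Pgd had 450.5, 662 and 645 CPM in the libraries labelled triple mutant, 392, 382 and 429 CPM in the double heterozygotes and 649, 566 and 543 CPM in Tak1ΔM/+. Pgd stood at 476, 492 and 451 CPM in the libraries labelled Tbk1/Ripk1 mutant, 845, 415 and 920.0 CPM in Tbk1+/- and 600.2, 587 and 411 CPM in WT. As for G6pdx, Tbk1+/- replicates 1 and 3 were the highest of all libraries, and replicate 2 overlapped with the double heterozygotes. Pgd fell against Tbk1+/- (-0.86 ± 0.23 SE, adjusted p = 0.0162), a call that ended without Tbk1+/- replicate 1 or 3 or double heterozygote replicate 1 or 2 (highest adjusted p 0.0818). Taldo1 and Tkt, which run the carbon-shuffling steps of the pathway, ranged 1.79-fold and 1.49-fold and were not called. Me1, the cytosolic malic enzyme, was at 3.69 ± 1.49 CPM in the double heterozygotes, against 9.22 ± 5.26 CPM in Tbk1+/- (SD, n = 3 each), and was not called.

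Replicates of a genotype differed from each other across many members at once. Tbk1+/- replicate 2 was below both partners for 23 of 32 members, against 34.8% of all genes. WT replicate 3 was below both partners for 24 (37.5% of all genes), and replicate 1 labelled triple mutant for 25 (35.4%). Replicate 2 labelled Tbk1/Ripk1 mutant was above both partners for 21 (36.5%). The mitochondrial share was 0.671% in WT replicate 3 (partners 1.42% and 1.62%) and 0.370% in replicate 1 labelled triple mutant (1.10% and 1.05%). It was 1.57% in replicate 2 labelled Tbk1/Ripk1 mutant (0.451% and 0.449%) and 1.82% in Tbk1+/- replicate 2 (2.20% and 2.00%). Without Tbk1+/- replicate 2, 5 members were higher in Tbk1+/- than in WT: Srxn1 (log2 fold change 1.32, adjusted p = 0.00948), Prdx6 (1.25, 0.00352), Txn1 (0.81, 0.00948), Glrx (0.77, 0.0319) and Pgd (0.73, 0.0245). Without it, 8 members were lower in the libraries labelled Tbk1/Ripk1 mutant than in Tbk1+/-, Prdx6 most clearly (-1.48, adjusted p = 0.000551). The share of all genes called in that fit is not given, so these counts may not be particular to the members. Tbk1+/- replicates 1 and 3 were also the libraries with high Lyve1.

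Other genes of the pathway were counted from lists of their known roles, which were also chosen with earlier results of these data known. Of 26 other NRF2 partners and targets, all tested, none was called by edgeR in the double heterozygotes against WT (8 at an unadjusted p under 0.05, against 20.2% of all genes). Against Tbk1+/- 9 fell and none rose, with a background of 8.24% lower and 6.44% higher. Their median log2 fold changes were -0.192 and -0.419. Slc7a11, the cystine importer that feeds glutathione synthesis, had 6.57, 6.76 and 6.57 CPM in the double heterozygotes, 3.26, 6.87 and 4.72 CPM in the libraries labelled Tbk1/Ripk1 mutant and 33.4, 11.9 and 54.2 CPM in Tbk1+/-. It fell in the double heterozygotes (-2.32 ± 0.59 SE on the log2 scale, adjusted p = 0.0133) and in the libraries labelled Tbk1/Ripk1 mutant (-2.75 ± 0.60 SE, 0.0483), both against Tbk1+/-. The first call ended without Tbk1+/- replicate 3 or double heterozygote replicate 1 or 3 (highest adjusted p 0.072) and the second was kept only without Tbk1+/- replicate 2. The second was also lost in 6 of 10 other settings, among them limma-voom and the fit without the libraries of doubtful Tbk1 label. WT held 6.96, 8.43 and 1.74 CPM, below all 3 Tbk1+/- libraries. Gsta3, a glutathione transferase at 0, 0 and 0.697 CPM in the double heterozygotes and 5.79, 3.31 and 5.31 CPM in Tbk1+/-, also fell (adjusted p = 0.0227), too near 0 for a fold change, and its call ended without Tbk1+/- replicate 1 or double heterozygote replicate 1 or 2.

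Of 30 other glutathione, thioredoxin and peroxide enzymes, 28 were tested (Nxn and Sod3 had too few counts). In the double heterozygotes against WT 1 rose, Glrx5, a mitochondrial glutaredoxin of iron-sulfur cluster assembly (25.8 ± 2.59 CPM, against 9.88 ± 1.57 CPM in WT, log2 fold change 1.38, adjusted p = 0.0223). One fell, Msrb2, a mitochondrial methionine sulfoxide reductase (7.77 ± 1.40 CPM, against 15.8 ± 2.75 CPM in WT, -1.03, adjusted p = 0.012). The median log2 fold change of the 28 against WT was -0.208, and against Tbk1+/- 2 rose and 2 fell. Both counts of calls were near the shares over all genes (6.07% against WT and 14.7% against Tbk1+/-). Msrb2 rose in the libraries labelled triple mutant against the double heterozygotes (1.20, adjusted p = 0.00824). Leaving out 1 library kept the call of Glrx5 in 1 of 6 fits (adjusted p-values 0.049 to 0.0835), of Msrb2 against WT in 4 of 6 (lost without double heterozygote replicate 1 or 3) and of Msrb2 in the libraries labelled triple mutant in 5 of 6 (lost without double heterozygote replicate 1). Of 15 other NADPH-supplying enzymes 14 were tested (Me3 was not). The mitochondrial isocitrate dehydrogenase Idh2 rose against WT (136 ± 7.35 CPM in the double heterozygotes, against 99.9 ± 2.35 CPM in WT, log2 fold change 0.44, adjusted p = 0.0232), a call lost without any 1 of the 6 libraries (0.0553 to 0.112). The median log2 fold change of the 14 against WT was 0.036, and against Tbk1+/- 1 rose and 1 fell, again near the 6.07% and 14.7% of all genes.

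Of 8 genes of the phagocyte NADPH oxidase, the source of superoxide, 3 fell in the double heterozygotes against WT (3.9% of all genes) and 5 were not called. The same 3, counted by name, rose in the libraries labelled triple mutant against the double heterozygotes (1.84% of all genes). Both comparisons use the same double heterozygote libraries, so the rise is not independent of the fall. The median log2 fold changes of the 8 were -0.319 against WT and 0.393 in the libraries labelled triple mutant against the double heterozygotes, and in the double heterozygotes against Tbk1+/- 4 fell and 1 rose (8.24% and 6.44% of all genes). Cybb, the catalytic subunit, had 1899.6, 2144 and 2095 CPM in the libraries labelled triple mutant, 1355, 1362 and 1206 CPM in the double heterozygotes and 2683, 2889 and 2715 CPM in WT. The double heterozygotes were the lowest of these 3 groups, without overlap. Cybb fell against WT (-1.08 ± 0.13 SE on the log2 scale, adjusted p = 0.000296) and rose in the libraries labelled triple mutant (0.65 ± 0.13 SE, 0.0133). The fall of Cybb in the double heterozygotes was smaller against Tak1ΔM/+ than against WT. Its log2 fold changes in fits without 1 library were -0.616 to -0.397 and -1.13 to -1.03. Ncf1, the cytosolic organizer of the oxidase, had 219, 227 and 271 CPM in the libraries labelled triple mutant, 126, 128 and 133 CPM in the double heterozygotes and 225, 236 and 199 CPM in WT. It fell against WT (-0.77 ± 0.14 SE, adjusted p = 0.00465), and so did the GTPase Rac2 that activates the complex (-0.62 ± 0.17 SE, adjusted p = 0.0352). In the libraries labelled triple mutant both rose against the double heterozygotes (Ncf1 0.89, adjusted p = 0.00278, and Rac2 0.70, 0.034). The calls of Cybb and Ncf1 against WT were kept in 6 of 6 and 6 of 6 fits without 1 library. With the mitochondrial share as a covariate Cybb and Ncf1 kept their calls against WT and in the libraries labelled triple mutant and lost them against Tbk1+/-, while Rac2 lost its calls in all 3 comparisons. The calls of Glrx5, Msrb2 and Idh2 against WT and of Slc7a11 and Gsta3 against Tbk1+/- were lost with it as well, and that of Msrb2 in the libraries labelled triple mutant was kept. In the libraries labelled triple mutant Ncf1 kept its call in 6 of 6 fits, Cybb in 1 of 6 (adjusted p-values 0.0176 to 0.0846, kept without replicate 1 labelled triple mutant) and Rac2 in 0 of 6 (0.0669 to 0.153). Rac2 against WT was kept only without WT replicate 3 (0.0386 to 0.116). Set against Tak1ΔM/+, the double heterozygotes had 2 of the 8 lower, Cybb and Ncf1 (2.05% of all genes). There the call of Cybb was kept in 1 of 6 fits without 1 library and in 5 of 10 other settings. That of Ncf1 was kept in 3 of 6 and 10 of 10.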

How the data were processed

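Poly(A) RNA of 18 microglia libraries had been copied with a Smart-seq2 protocol, which does not mark the strand, and sequenced as 50-base paired reads, per the labels' protocols. The authors deposited 1 table of whole-number counts per gene. STAR, featureCounts and the mm10 build are named in the submitters' processing notes, while RSEM is named in the labels' protocols. Of 50686 gene identifiers 50462 were in GENCODE release M21, from which names and positions (GRCm38) were taken.

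From the counts, edgeR 4.0.16 in R 4.3.3 fitted 1 term per genotype over all 18 libraries by quasi-likelihood, after filterByExpr and TMM scaling, with Benjamini-Hochberg adjustment over 13447 genes and a threshold of 0.05. The fit was tested on simulated counts, drawn separately for each gene. They held no shifts shared by many genes of a library, so that test does not cover such differences between replicates. DESeq2 1.42.0, limma 3.58.1 (voom), other filters and scaling, a replicate block, the mitochondrial and Y-linked shares, and leaving out libraries were alternatives. Replicates differed beyond sampling noise in all 18 pairs (chi-square per degree of freedom 8.89 to 98.6). Genes were placed beside transcripts of at least 95% identity over 200 bases with blastn 2.17.0. The members, the other lists and the rule for named genes (every member called in a comparison with all its values, and up to 4 called genes of each other list) were chosen with earlier results of these data known. Total counts limit the precision of members at a few CPM (Gclc, Me1, Nqo1).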

Additional observations from a re-analysis of the deposited data

Results flagged for a closer look

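The effect of the Tak1 allele on Prdx4 and Prdx6 differed between Tbk1+/- and Tbk1 wild-type backgrounds by the interaction term of edgeR's quasi-likelihood fit. For Prdx4 the interaction was -1.42 on the log2 scale (adjusted p = 0.0337), and for Prdx6 it was -1.65 (adjusted p = 0.0493). The call of Prdx4 was kept in 2 of 12 fits that left out 1 library (without Tbk1+/- replicate 2 or Tak1ΔM/+ replicate 1) and that of Prdx6 in 1 of 12 (without Tbk1+/- replicate 2). Both were also lost with the mitochondrial share as a covariate, without the 5 libraries of doubtful Tbk1 label, in the fit of the compared libraries alone, with limma-voom and with the replicate block. Groups of 3 are too small for a check of single outlying libraries.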

How the results depend on the processing

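The numbers of members called depended on the processing. They are given without the share of all genes called in each setting, so they show only how far the calls of members moved. In the test over all 6 genotypes (3 members) DESeq2 called 14, limma-voom 1, the fit without a low-count filter 16, a filter at a mean of 5 CPM 5 and the Y-linked covariate 9, and leaving out 1 library gave 0 to 10. The fit without a filter called 5 for Tbk1+/- against WT and 2 for Tak1ΔM/+ against WT, where leaving out 1 library gave 0 to 5 and 0. For the double heterozygotes against WT (4 members) it called 7, the fit without the 5 libraries of doubtful Tbk1 label 2 and the fit of the compared libraries alone 9, and leaving out 1 library gave 0 to 4. Against Tbk1+/- (16 members) the range on leaving out 1 library was 5 to 16. Against Tak1ΔM/+ (2 members) DESeq2 called 4, limma-voom 1, no filter 7, the Y-linked covariate 11, the fit without the doubtful libraries 1 and the compared libraries alone 6, and leaving out 1 library gave 0 to 2. In that comparison Y-linked counts did not overlap between the groups, so their covariate cannot separate sex from genotype. For the libraries labelled Tbk1/Ripk1 mutant against Tbk1+/- (0 members) DESeq2 called 5 and no filter 8, and the range was 0 to 8. For the libraries labelled triple mutant against double heterozygotes (1 member) DESeq2 called 5, limma-voom 0, no filter 8, the Y-linked covariate 6 and the compared libraries alone 6, and the range was 0 to 3. Y-linked counts did not overlap there either (0 to 61.5 CPM, against 75.9 to 99.5 CPM in the double heterozygotes), so the covariate has the same limit. For the interaction (2 members) DESeq2 called 4, limma-voom 0, DESeq2 size factors 1, no filter 11, the Y-linked covariate 10, and the fit without the doubtful libraries and that of the compared libraries 0, and the range was 0 to 9. The interaction and the test over all genotypes also include groups whose Y-linked counts did not overlap, so the limit of that covariate holds for them too. With the mitochondrial share as a covariate 0 members were called in every comparison, and Prdx1 in the double heterozygotes against Tbk1+/- changed sign to 0.089. The cause was not tested.

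The replicate block left 0 members called in the test over all genotypes, in the libraries labelled triple mutant against double heterozygotes and in the interaction, and 3 and 15 in the double heterozygotes against WT and against Tbk1+/-. Replicate numbers do not pair these libraries: same-numbered libraries had correlations of -0.054 to 0.045 in their deviations from the group means, and 8 of 18 libraries correlated best with their own number. Over 757 alternatives for the named genes 512 kept direction and call, 244 lost the call and 1 reversed. No value exists without the doubtful libraries for the test over all genotypes and for the libraries labelled triple mutant, or for Nqo1 and Gsta3 under the filter at 5 CPM.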
